A study of Mus musculus with 14 samples.

Results

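The 42 genes described here encode collagens, other extracellular matrix proteins and surface or contractile proteins of stromal and mural cells, and they were measured in RNA from sorted macrophages. They were chosen by symbol as the genes of a fixed list of collagen, matrix, stromal and mural cell genes that the count table holds, 42 of its 24982 listed genes, and gene symbols are written in capitals as in that table. Colonic lamina propria macrophages were sorted from mice at 5 weeks of age, on the C57BL/6 strain, and RNA-seq libraries were made from full-length cDNA. Every group, the controls included, carried Cdcs1, a locus that raises susceptibility to colitis when cytokine signalling is deficient. WT mice (n = 5 libraries) carried Cdcs1 alone, IL10RAKO mice (n = 4) also carried Il10ra -/-, DKO mice (n = 4) carried Il10ra -/- and Ccr2 -/-, and 1 library came from a CCR2KO mouse with Ccr2 -/- alone. All these deletions are germline, so the stromal cells around the macrophages lacked the same genes. The lamina propria came from colon and cecum, the epithelium was stripped with EDTA, the rest was digested with Collagenase VIII, and live cells were sorted as CD45+, Ly6G-, CD103-, CD64+, CD11b+, MHCII+ and Ly6C-. Stromal, endothelial and muscle cells lack CD45 and are outside that gate.

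Fibroblasts of the intestinal lamina propria secrete fibrillar collagens, type VI collagen, small leucine-rich proteoglycans and elastic fibre proteins, while laminins, nidogen and type IV collagen form the basement membranes under the epithelium and around vessels and smooth muscle. Pericytes and smooth muscle cells are marked by platelet-derived growth factor receptor beta and by contractile proteins. Macrophages take up and degrade collagen and are not known as a main source of fibrillar collagen RNA, but they do express some of the genes described here, among them gelsolin, an actin-severing protein.

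To show the sequence in front of the collagen gene with the most reads, the promoter of COL3A1 is given below. That of MYL9 is given because, of the 27 promoters that could be searched, it alone had a CArG box in the window used. This box is the site that serum response factor binds in smooth muscle genes. Both are from RefSeq on GRCm38.p6, cover bases before the RefSeq transcription start and leave out those inside exons of GENCODE vM21. COL3A1 lies at chr1:45311288-45311537 on the plus strand, with a TATAAA in capitals whose first base is 117 bases before the RefSeq start, next to which the sequence ends. MYL9 lies at chr2:156775214-156775419 on the plus strand, with the CArG box in capitals, whose first base is 161 bases before the RefSeq start. Its printed sequence ends short of that start, where a GENCODE exon begins.
COL3A1: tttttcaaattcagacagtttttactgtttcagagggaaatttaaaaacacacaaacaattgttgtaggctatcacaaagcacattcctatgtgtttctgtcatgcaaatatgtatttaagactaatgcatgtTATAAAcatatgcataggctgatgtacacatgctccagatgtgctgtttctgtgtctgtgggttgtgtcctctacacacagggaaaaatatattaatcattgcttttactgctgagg
MYL9: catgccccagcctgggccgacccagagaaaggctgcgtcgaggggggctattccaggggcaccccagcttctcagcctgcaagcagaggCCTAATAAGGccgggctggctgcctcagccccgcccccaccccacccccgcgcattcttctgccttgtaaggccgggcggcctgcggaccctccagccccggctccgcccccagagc
A promoter was matched for 27 of the 42 genes. Searched on both strands over the 250 bases before the start, the CArG box was found in 1 of these 27 and in 1.624% of 27025 genes, and TATAAA in 3 of the 27 (COL3A1, POSTN and IGFBP4) and in 14.327% of all genes. Both shares describe letters in this window only, and the genes without a matched promoter were not searched.

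The 14 libraries held 12153000 to 21216468 counted reads. Values are given as CPM, the read count of a gene relative to a library size scaled by the trimmed mean of M-values (TMM). WT replicate 4, the shallowest library, was left out by the study and from the main test here, entered only an alternative fit, and is described apart with the CCR2KO library. It also had the fewest genes with a read (11670). The epithelial markers described below summed to 4880 CPM in it, against 134 to 1742 CPM in the WT libraries tested. IL10RA stood at 217 to 380 CPM in the 4 WT libraries tested and at 3.41 to 11.2 CPM in the 8 knockout libraries, and CCR2 at 361 to 702 CPM in WT and IL10RAKO and at 3.92 to 6.68 CPM in DKO, as the genotypes require. Summed over 15 macrophage markers, WT libraries held 5.80e+04 to 7.20e+04 CPM, IL10RAKO libraries 7.61e+04 to 1.05e+05 CPM and DKO libraries 6.54e+04 to 8.66e+04 CPM. The stromal genes were thus read in libraries in which macrophage RNA was abundant.

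Stromal and matrix RNA was a small share of each library and was larger in WT. The 42 genes took 0.211%, 0.271%, 0.241% and 0.306% of the counted reads in WT 1, 2, 3 and 5. They took 0.0927%, 0.0585%, 0.0852% and 0.0784% in IL10RAKO 1 to 4, and 0.0814%, 0.0838%, 0.0842% and 0.103% in DKO 1 to 4. The WT range did not overlap either knockout range, while the IL10RAKO and DKO ranges overlapped. The widest 95% interval (Wilson, counting error only) of any of these shares ran from 0.303% to 0.309%, in WT 5. The spread between WT mice and between IL10RAKO mice was far wider than the counting error. In DKO, the interval of DKO 2 (0.0824% to 0.0851%) overlapped those of DKO 1 and DKO 3, and DKO 4 lay above them. GSN, the gene for gelsolin, held 19.1% to 43.6% of these reads in WT but 66.3% to 78.7% in IL10RAKO and 67.7% to 81.4% in DKO. Without GSN, the other 41 genes took 0.119% to 0.247% of the counted reads in WT (median 0.186%), 0.0136% to 0.0287% in IL10RAKO (median 0.0191%) and 0.0152% to 0.0333% in DKO (median 0.0216%). Which cells these reads came from was not tested. In RNA from a bulk sort, fewer cells of a type and less RNA per cell cannot be told apart.

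**Figure D1:**
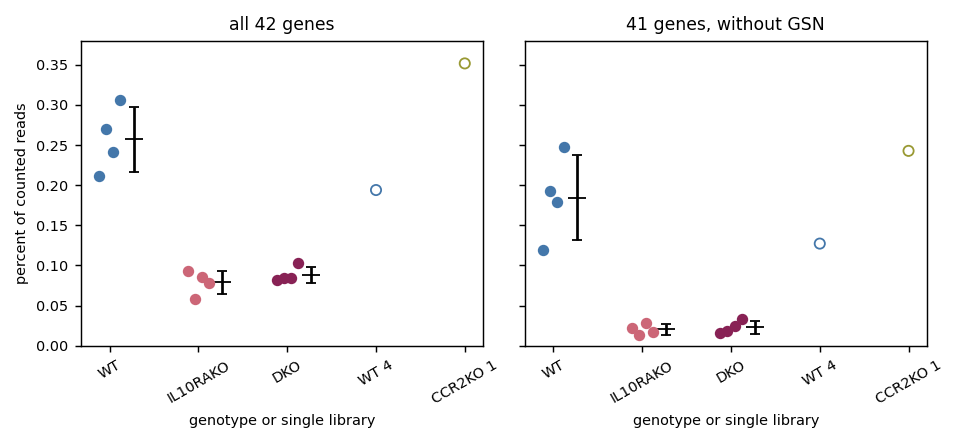
Share of counted reads, in percent, taken by all 42 stromal and matrix genes (left) and by the 41 genes without GSN (right), on axes that start at 0. Each point is 1 library, the horizontal bars are means and the vertical bars 1 SD over 4 libraries per genotype, and open circles are WT 4 and the CCR2KO library, which were not among the 12 libraries of the main test. The WT libraries sit at 0.211% to 0.306% on the left, above every IL10RAKO and DKO library.

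To ask which of these genes differed between genotypes, all 13136 genes with enough reads were tested together in 12 libraries with edgeR's quasi-likelihood test, and calls were made at a Benjamini-Hochberg adjusted p under 0.05. Of the 42 genes, 40 passed the filter on low counts, many of them through their WT level, and MYH11 and THY1 did not. The counts over these 40 are therefore a description. In IL10RAKO against WT, 35 of the 40 were lower and 0 higher, where 7.10% of all tested genes were lower and 8.70% higher. At an unadjusted p under 0.05 there were 39, all lower. DESeq2 called 36 of the 40 lower and 0 higher, against 1271 lower and 1360 higher of all 13136 genes. The median log2 fold change of the 40 was -3.36, against -0.07 over all tested genes. Every IL10RAKO library was below every WT library for 36 of the 40, against 8.78% of all tested genes. In DKO against WT, again 35 of the 40 were lower and 0 higher, where 9.22% of all tested genes were lower and 9.23% higher, and the median log2 fold change was -3.31 against -0.06. At an unadjusted p under 0.05 there were 37, all lower. DESeq2 called 36 of the 40 lower and 0 higher, against 1552 lower and 1456 higher of all 13136 genes. For neither comparison was the share of all genes under that unadjusted threshold counted. Every DKO library was below every WT library for 33 of the 40, against 11.0% of all tested genes. Both comparisons use the same 4 WT libraries, so a WT library that is high in a gene lowers both fold changes. With WT 4 added, 28 of 41 tested genes were lower in IL10RAKO and 29 of 41 in DKO, none higher. Over all 13252 genes tested in that fit, 676 were lower in IL10RAKO and 858 in DKO. NID1, SPARCL1, IGFBP5, FBN1, PDGFRA and PDGFRB lost both calls. Adjusted p-values here measure the spread between mice, for which the labels give no sex, litter or sorting day.

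**Figure D2:**
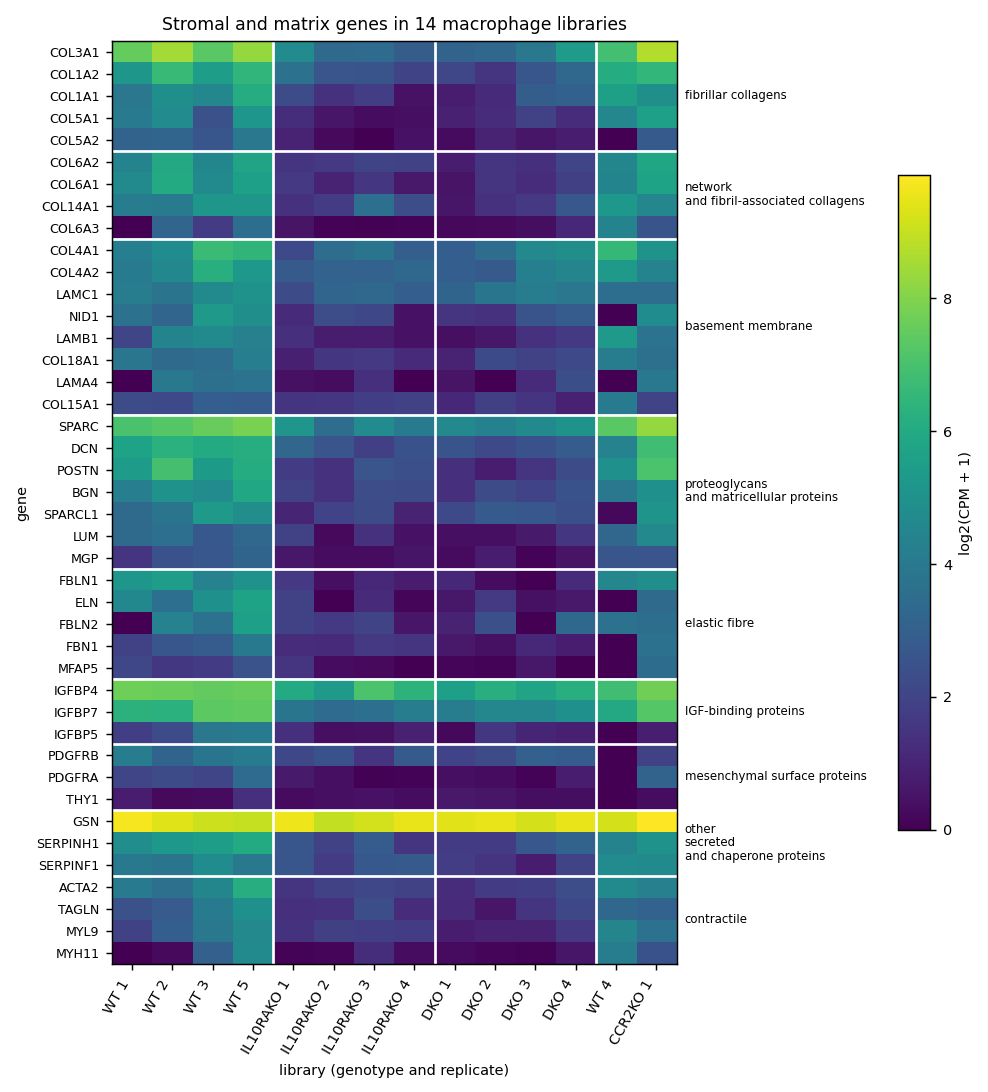
Level of each of the 42 genes (rows, ordered by role) in each of the 14 libraries (columns), as log2(CPM + 1) on a colour scale from dark (0) to yellow. White lines separate genotypes and roles, and the last columns are WT 4 and the CCR2KO library. The WT columns are brighter than the 8 IL10RAKO and DKO columns in most rows, GSN is bright in all 14, and MYH11 is brighter in WT 3 and 5 than in WT 1 and 2.

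The fibrillar collagens, whose triple helices form the tension-bearing fibrils of connective tissue, were all lower in both knockouts. All 5 were called in IL10RAKO (median log2 fold change -4.28) and in DKO (-3.78), the COL5A2 call in DKO being lost with WT 4 added (-3.58, adjusted p = 0.0680), where COL5A2 had 0 reads. COL3A1, the chain of type III collagen, stood at 180, 356, 161 and 308 CPM in WT 1, 2, 3 and 5, at 26, 9.72, 9.86 and 6.47 CPM in IL10RAKO 1 to 4, and at 7.67, 8.90, 14.5 and 41.8 CPM in DKO 1 to 4. IL10RAKO 1 and DKO 4 were the highest knockout libraries and were still below the lowest WT library. The log2 fold change of COL3A1 was -4.28 ± 0.52 (SE) in IL10RAKO (adjusted p = 0.000198) and -3.78 ± 0.52 in DKO (adjusted p = 0.000362). COL1A2, the second chain of type I collagen, stood at 36.2, 101, 45.4 and 88.3 CPM in WT, at 11.9, 5.04, 4.91 and 3.10 CPM in IL10RAKO, and at 3.26, 1.81, 5.20 and 8.95 CPM in DKO. The groups did not overlap, and the log2 fold changes were -3.44 ± 0.48 (adjusted p = 0.000411) and -3.81 ± 0.48 (adjusted p = 0.000184). COL1A1, the other type I chain, COL5A1 and COL5A2, chains of the type V collagen that starts fibrils, were at 4.43 to 67.5 CPM in WT and at 0 to 7.32 CPM in the knockouts, and of these COL5A2 had 0 reads in IL10RAKO 3. The ratio of COL3A1 to COL1A2 reads ran from 3.49 to 4.99 across the WT libraries, from 1.93 to 2.18 across the IL10RAKO libraries and from 2.36 to 4.93 across the DKO libraries, so that the IL10RAKO libraries lay below these WT and DKO libraries and the WT and DKO ranges overlapped. WT 4, at 1.78, was lower than every IL10RAKO library. This ratio was looked at after the values were seen and was not tested.

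Type VI collagen, a beaded microfibril that links cells to the fibrils, was lower in both knockouts, and with the fibril-associated COL14A1 its genes had median log2 fold changes of -4.40 in IL10RAKO and -3.97 in DKO. COL6A2 stood at 19.9, 60.3, 22.0 and 53.4 CPM in WT, at 1.88, 2.12, 3.08 and 2.71 CPM in IL10RAKO, and at 0.718, 1.81, 1.55 and 3.11 CPM in DKO. COL6A1 stood at 24.2, 64.2, 25.3 and 46.7 CPM in WT, at 2.09, 0.934, 1.97 and 0.594 CPM in IL10RAKO, and at 0.442, 1.87, 1.41 and 2.62 CPM in DKO. Both chains were highest in WT 2 and 5, and neither overlapped between WT and the knockouts. The log2 fold changes of COL6A1 were -4.83 ± 0.49 (adjusted p = 3.65e-05) and -4.65 ± 0.48 (adjusted p = 3.56e-05), and those of COL6A2 were -3.98 ± 0.42 (adjusted p = 5.03e-05) and -4.42 ± 0.43 (adjusted p = 2.22e-05), in IL10RAKO and DKO in turn. COL6A3, the largest chain, had 0 reads in WT 1 but 2.32 to 10.9 CPM in the other 3 WT libraries tested. It was called in IL10RAKO (log2 fold change -5.15 ± 1.28, adjusted p = 0.0183) and not in DKO (-3.51 ± 1.13, adjusted p = 0.0575), and without WT 1 the DKO value was -3.92 (adjusted p = 0.00512). The IL10RAKO call was lost without WT 5 (adjusted p = 0.0518), IL10RAKO 2 (adjusted p = 0.0595) or IL10RAKO 4 (adjusted p = 0.0620), and the DKO value was called without DKO 4 (adjusted p = 0.0468). COL14A1, a collagen that binds to the surface of fibrils, was 15.8 to 36.4 CPM in WT and called lower in both knockouts (log2 fold changes -2.46 and -3.44), with IL10RAKO 3 at 11.1 CPM the highest knockout library. Its IL10RAKO call was lost without IL10RAKO 1, 2 or 4 (adjusted p = 0.0576, 0.0608 and 0.0601).

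The basement membrane genes were lower in most cases, with more overlap between DKO and WT than the collagens of the fibrils had. Of 8 genes, 6 were called lower in IL10RAKO (median log2 fold change -2.92) and 6 in DKO (median -2.0). COL4A1 and COL4A2, the chains of the type IV collagen network, are neighbours transcribed in opposite directions, at chr8:11198423-11312826 and chr8:11312805-11449287 in GENCODE vM21 on GRCm38. Their first exons overlap, and since the strand setting of the counting is not given in the sources used here, reads in the overlap could not be assigned to one gene. COL4A1 stood at 18, 26.4, 104 and 87.0 CPM in WT, at 3.55, 10.4, 13.0 and 7.00 CPM in IL10RAKO, and at 6.79, 10.5, 23.8 and 28.1 CPM in DKO. COL4A2 stood at 16.0, 23.4, 73.6 and 37.3 CPM in WT, at 5.85, 7.54, 7.53 and 8.85 CPM in IL10RAKO, and at 6.74, 5.91, 18.2 and 21.4 CPM in DKO. For both genes the IL10RAKO libraries were below all WT libraries, while DKO 3 and 4 reached above WT 1. The log2 fold changes in IL10RAKO were -2.79 ± 0.57 for COL4A1 (adjusted p = 0.00572) and -2.34 ± 0.47 for COL4A2 (adjusted p = 0.00442). In DKO they were -1.77 ± 0.56 (adjusted p = 0.0470) and -1.53 ± 0.46 (adjusted p = 0.0363), and these calls were not stable: without WT 3 the values were -1.33 (adjusted p = 0.139) and -0.96 (adjusted p = 0.143), and without WT 5 they were -1.51 (adjusted p = 0.120) and -1.53 (adjusted p = 0.0646). Without DKO 1 they were -1.49 (adjusted p = 0.117) and -1.30 (adjusted p = 0.100), and without DKO 2 they were -1.58 (adjusted p = 0.133) and -1.28 (adjusted p = 0.107). The COL4A1 call alone was also lost without DKO 3 (adjusted p = 0.0662) and without IL10RAKO 2, 3 or 4 (adjusted p = 0.0595, 0.0532 and 0.0605).

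Of the laminin chains, LAMB1 was lower in both knockouts and LAMC1 in IL10RAKO alone, although the 2 knockouts were not shown to differ. LAMB1, a beta chain, was 3.15 CPM in WT 1 and 18.5 to 24.4 CPM in the other 3 WT libraries, against 0.331 to 2.17 CPM in the knockouts, with log2 fold changes of -4.30 ± 0.65 (adjusted p = 0.000808) and -3.82 ± 0.63 (adjusted p = 0.00134). LAMC1, the gamma chain shared by most laminins, stood at 12.7 to 31 CPM in WT, 3.76 to 8.70 CPM in IL10RAKO and 8.06 to 17.0 CPM in DKO. Its log2 fold change was -1.64 ± 0.33 in IL10RAKO (adjusted p = 0.00431) and -0.71 ± 0.33 in DKO (adjusted p = 0.160), and the DKO libraries overlapped WT. LAMA4, the alpha chain of vessel and muscle basement membranes, had 0 reads in WT 1 and 11.5 to 14.2 CPM in WT 2, 3 and 5, and it was called in neither knockout (log2 fold changes -4.11 and -2.67). Without WT 1 it was called in both (-4.51, adjusted p = 0.0127, and -3.08, adjusted p = 0.0462), and without IL10RAKO 3 it was called in IL10RAKO (adjusted p = 0.0471). NID1, which bridges laminin and type IV collagen, and COL18A1, the source of endostatin, were called lower in both, at -3.25 and -2.60 for NID1 and at -3.05 and -2.23 for COL18A1 on the log2 scale, the NID1 call in DKO being lost without DKO 2 (adjusted p = 0.0505). COL15A1, a collagen of the outer face of vessel and muscle basement membranes, was 3.52 to 6.67 CPM in WT. It was not called in IL10RAKO (log2 fold change -1.14 ± 0.43, adjusted p = 0.0902) and was called in DKO (-1.62 ± 0.43, adjusted p = 0.0185), a call lost without DKO 1 (adjusted p = 0.0588) and without DKO 4 (adjusted p = 0.0591).

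All 7 proteoglycan and matricellular genes were called lower in both knockouts, with median log2 fold changes of -3.42 in IL10RAKO and -3.39 in DKO. SPARC, a collagen-binding glycoprotein, stood at 130, 152, 186 and 231 CPM in WT, at 34.3, 10.5, 25.7 and 15.1 CPM in IL10RAKO, and at 24.0, 19.3, 24.6 and 31.4 CPM in DKO. DCN, the small leucine-rich proteoglycan decorin, stood at 50.9, 76.4, 63.4 and 70.1 CPM in WT, at 8.56, 5.11, 2.68 and 4.56 CPM in IL10RAKO, and at 4.91, 3.55, 4.64 and 6.23 CPM in DKO. Both genes varied by less than 2-fold across the 4 WT libraries, and the highest knockout library was well under the lowest WT library. DCN had the smallest adjusted p of the 40 genes in both comparisons, with log2 fold changes of -3.65 ± 0.29 (adjusted p = 3.29e-06) and -3.75 ± 0.29 (adjusted p = 2.26e-06), and SPARC had log2 fold changes of -3.03 ± 0.31 (adjusted p = 2.83e-05) and -2.82 ± 0.31 (adjusted p = 3.98e-05). POSTN, the matricellular protein periostin, was 40.7 to 123 CPM in WT and 0.685 to 5.11 CPM in the knockouts, with log2 fold changes of -4.36 and -5.13. BGN, the proteoglycan biglycan, and LUM, the proteoglycan lumican, had log2 fold changes of -3.42 and -2.77 in IL10RAKO and -3.36 and -3.39 in DKO, the LUM call in IL10RAKO being lost without WT 2 (adjusted p = 0.0518), IL10RAKO 2 (adjusted p = 0.0505) or IL10RAKO 4 (adjusted p = 0.0683). SPARCL1, a relative of SPARC found around vessels, and MGP, an inhibitor of matrix calcification, had log2 fold changes of -3.31 and -3.70 in IL10RAKO and -2.23 and -3.78 in DKO.

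Among the elastic fibre genes, FBLN1 and ELN had some of the lowest levels relative to WT. FBLN1, a glycoprotein of elastic fibres and basement membranes, stood at 34.7, 43.2, 19.7 and 31.7 CPM in WT, at 2.09, 0.311, 1.21 and 0.661 CPM in IL10RAKO, and at 1.16, 0.249, 0 and 1.33 CPM in DKO. ELN, the gene for tropoelastin, stood at 23.4, 11.2, 30.1 and 51.9 CPM in WT, at 2.85, 0, 1.26 and 0.132 CPM in IL10RAKO, and at 0.552, 2.18, 0.351 and 0.593 CPM in DKO. Neither gene overlapped between WT and the knockouts. The log2 fold changes of FBLN1 were -4.92 ± 0.63 (adjusted p = 0.000241) and -5.48 ± 0.65 (adjusted p = 0.000106), and those of ELN were -4.78 ± 0.82 (adjusted p = 0.00222) and -4.98 ± 0.82 (adjusted p = 0.00157). ELN had 0 reads in WT 4, and with that library added the IL10RAKO value was -4.45 (adjusted p = 0.0517). FBN1, the fibrillin of microfibrils, was called lower in both (log2 fold changes -2.15 and -3.33), and without WT 5 its IL10RAKO value was -1.54 (adjusted p = 0.0641). FBLN2, another fibulin, had 0 reads in WT 1 against 12.2 to 46.4 CPM in the other 3 WT libraries and was called in neither (-3.20 and -2.47). Without WT 1 it was called in both (-3.61, adjusted p = 0.0172, and -2.87, adjusted p = 0.0370). MFAP5, a microfibril-associated glycoprotein at 2.05 to 4.79 CPM in WT, was not called in IL10RAKO (-2.42 ± 1.06, adjusted p = 0.160) and was called in DKO (-4.10 ± 1.15, adjusted p = 0.0302). Its DKO call was lost without WT 5 (adjusted p = 0.0658), DKO 1 (adjusted p = 0.0902), DKO 2 (adjusted p = 0.0998) or DKO 4 (adjusted p = 0.0759), and without IL10RAKO 1 it was called in IL10RAKO (-4.28, adjusted p = 0.0421).

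The IGF-binding proteins, secreted carriers of insulin-like growth factors, were 3 of 3 lower in both knockouts, but IGFBP4 by less. IGFBP4 stood at 203, 191, 177 and 190 CPM in WT, at 63.6, 38.1, 134 and 80.8 CPM in IL10RAKO, and at 45.9, 70.6, 52.9 and 73.9 CPM in DKO. The 4 WT libraries were close together, and IL10RAKO 3 came nearest to them. IGFBP7 stood at 80.3, 76.6, 165 and 174 CPM in WT, at 13.2, 9.78, 11.2 and 16.4 CPM in IL10RAKO, and at 17.1, 22.6, 22.4 and 29.8 CPM in DKO. WT 3 and 5 were higher than WT 1 and 2, and no knockout library reached the WT range. An exon of IGFBP7 overlaps one of Polr2b on the opposite strand, so reads there could not be assigned to one gene. The log2 fold changes of IGFBP4 were -1.27 ± 0.29 (adjusted p = 0.00867) and -1.65 ± 0.29 (adjusted p = 0.00139), and those of IGFBP7 were -3.29 ± 0.28 (adjusted p = 6.78e-06) and -2.43 ± 0.28 (adjusted p = 6.09e-05). IGFBP5 was 2.53 to 15.2 CPM in WT and 0.166 to 1.99 CPM in the knockouts, with log2 fold changes of -3.55 and -3.14.

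The receptors of mesenchymal cells were scarce in all libraries. PDGFRB, the receptor that marks pericytes and many fibroblasts, stood at 16.7, 8.03, 13.1 and 16.3 CPM in WT, at 3.41, 4.55, 1.77 and 5.88 CPM in IL10RAKO, and at 2.93, 3.80, 7.10 and 6.28 CPM in DKO. PDGFRA, the receptor that marks intestinal fibroblasts and telocytes, stood at 3.15, 3.87, 3.15 and 9.86 CPM in WT, at 0.626, 0.311, 0.0506 and 0.0660 CPM in IL10RAKO, and at 0.331, 0.249, 0.0703 and 0.741 CPM in DKO. Neither overlapped between the 4 WT libraries and the knockouts, although both had 0 reads in WT 4. The log2 fold changes were -4.24 ± 0.81 (adjusted p = 0.00383) and -3.79 ± 0.78 (adjusted p = 0.00570) for PDGFRA, and -1.80 ± 0.39 (adjusted p = 0.00704) and -1.43 ± 0.39 (adjusted p = 0.0212) for PDGFRB. With WT 4 added, adjusted p was 0.0573 and 0.0737 for PDGFRA and 0.321 and 0.456 for PDGFRB. The PDGFRB call in DKO was also lost without WT 5 (adjusted p = 0.0536), without DKO 1 (adjusted p = 0.0638) and without DKO 2 (adjusted p = 0.0724). THY1, a surface glycoprotein of fibroblasts and T cells, was 0.176 to 1.60 CPM in WT and 0.209 to 0.607 CPM in the knockouts, too low to be tested, and its groups overlapped.

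GSN had the most reads of the 42 genes and was called in neither knockout. It stood at 847, 660, 542 and 508 CPM in WT 1, 2, 3 and 5, at 767, 491, 581 and 725 CPM in IL10RAKO, and at 681, 731, 588 and 733 CPM in DKO. The 3 groups overlapped throughout, with log2 fold changes of 0.00 (95% interval -0.40 to 0.41, adjusted p = 0.991) and 0.10 (95% interval -0.31 to 0.50, adjusted p = 0.775). With libraries scaled by their totals alone, these values were -0.31 and -0.16. SERPINH1, the chaperone that folds procollagen in the endoplasmic reticulum, stood at 27.2, 37.5, 45.1 and 64.1 CPM in WT, at 5.29, 2.80, 6.37 and 1.78 CPM in IL10RAKO, and at 2.32, 2.30, 5.34 and 7.86 CPM in DKO. Its groups did not overlap, and its log2 fold changes were -3.41 ± 0.44 (adjusted p = 0.000219) and -3.28 ± 0.44 (adjusted p = 0.000235). SERPINF1, the secreted anti-angiogenic factor PEDF, was 12.7 to 26.7 CPM in WT and was called lower in both knockouts (log2 fold changes -1.86 and -3.07).

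The contractile genes of smooth muscle and myofibroblasts were the most variable among WT mice. ACTA2, smooth muscle alpha-actin, stood at 15.3, 11.3, 22.2 and 70.1 CPM in WT, at 1.88, 2.74, 3.29 and 2.84 CPM in IL10RAKO, and at 1.38, 2.30, 2.53 and 4.05 CPM in DKO. TAGLN, the actin-binding protein SM22, stood at 4.44, 6.10, 15.2 and 29.8 CPM in WT, at 1.60, 1.68, 4.15 and 1.39 CPM in IL10RAKO, and at 1.33, 0.498, 1.83 and 3.41 CPM in DKO. WT 5 was the highest library for both, and the lowest WT library was above each knockout library, for TAGLN by a narrow margin. An exon of TAGLN overlaps one of Pcsk7 on the opposite strand, with the same limit on assigning reads. The log2 fold changes of ACTA2 were -3.46 ± 0.50 (adjusted p = 0.000524) and -3.52 ± 0.50 (adjusted p = 0.000399), and those of TAGLN were -2.64 ± 0.63 (adjusted p = 0.0137) and -2.96 ± 0.63 (adjusted p = 0.00666). Without WT 5, the TAGLN value in IL10RAKO was -1.95 (adjusted p = 0.0580). MYL9, a regulatory light chain of myosin, was 2.77 to 23.7 CPM in WT and called lower in both (log2 fold changes -2.38 and -3.25). MYH11, the smooth muscle myosin heavy chain, stood at 0, 0.176, 7.12 and 24.9 CPM in WT, at 0.0696, 0.125, 1.47 and 0.264 CPM in IL10RAKO, and at 0.221, 0.125, 0.0703 and 0.494 CPM in DKO. It was too low in most libraries to be tested, and WT 1, with 0 reads, lay below the knockout range and WT 2 within it, while WT 3 and 5 lay above it.

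**Figure D3:**
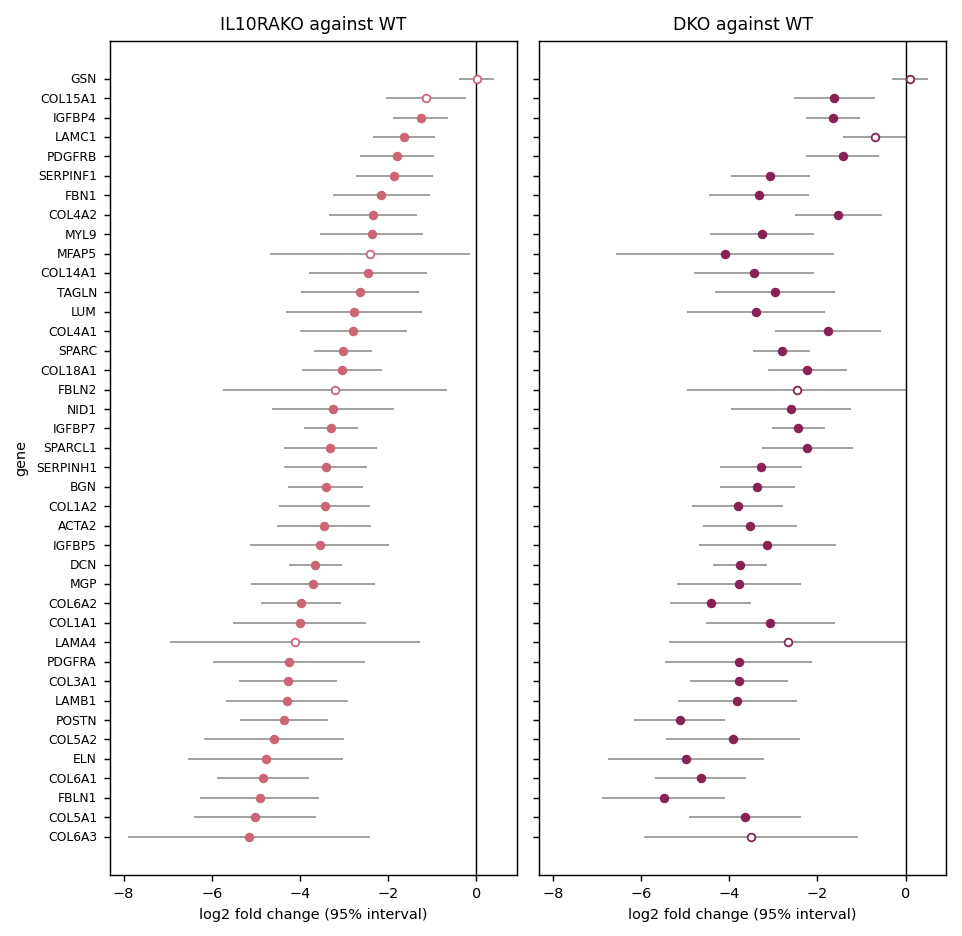
Log2 fold change of each of the 40 tested genes in IL10RAKO against WT (left) and DKO against WT (right), with lines for the 95% interval. Filled points passed an adjusted p under 0.05 and open points did not, and the rows are ordered by the IL10RAKO value. GSN is at 0.00 and 0.10 at the top, and COL6A3 at -5.15 (left) and FBLN1 at -5.48 (right) have the lowest values.

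The gene lists that share a function or a cell type with these genes were read in the same fits. Collagen processing and crosslinking enzymes had fewer calls than the genes above. Of 24 genes 20 were tested, 4 were lower and 1 higher in IL10RAKO, and 6 were lower and 1 higher in DKO. Of all tested genes, 7.10% were lower and 8.70% higher in IL10RAKO, and 9.22% were lower and 9.23% higher in DKO. The median log2 fold change of the list was -0.55 in IL10RAKO and -0.84 in DKO. P4HB and COLGALT1 had the highest mean CPM of the list's tested genes, and neither was called lower. P4HB, a subunit of the enzyme that hydroxylates prolines in collagen and a general folding enzyme of secretory cells, was 400 to 440 CPM in WT and 533 to 640 CPM in DKO (log2 fold change 0.45 ± 0.15, adjusted p = 0.0460). COLGALT1, which glycosylates collagen, was 112 to 146 CPM in WT and 113 to 198 CPM in DKO and was called in neither knockout. Of 25 other fibroblast genes 16 were tested, and 14 were lower in IL10RAKO and 15 in DKO, with none higher. FSTL1, a secreted fibroblast glycoprotein, was 15.3 to 34.2 CPM in WT and 0.843 to 5.39 CPM in the knockouts, with log2 fold changes of -3.53 ± 0.44 (adjusted p = 0.000180) and -3.28 ± 0.44 (adjusted p = 0.000238). EFEMP2, a fibulin, was called in DKO (log2 fold change -0.99, adjusted p = 0.0401), and its IL10RAKO value was -0.77 (adjusted p = 0.117).

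Among markers of other cells outside the gate, those of smooth muscle, pericytes and endothelium were lower in the knockouts to differing degrees. Few epithelial markers were called. Of all tested genes, 7.10% were called lower in IL10RAKO and 9.22% in DKO. The part of these cells in the results above was not tested. Of 12 other smooth muscle genes 8 were tested, 7 were lower in each knockout and 0 higher, and LMOD1 had 0 reads in all 8 knockout libraries. TPM1 and SMTN, smooth muscle genes that other cells also use, had log2 fold changes of -1.16 and -0.91 in IL10RAKO and -1.08 each in DKO. Of 8 pericyte genes 2 were tested, MCAM was called lower in both, and RGS5 was called in DKO (log2 fold change -4.32 ± 1.04, adjusted p = 0.0155) and not in IL10RAKO (-2.77 ± 0.98, adjusted p = 0.0857). Of 14 endothelial markers 12 were tested, and 7 were lower in IL10RAKO and 8 in DKO. PLVAP, a protein of fenestrated endothelium, was 50.2 to 370 CPM in WT, 7.52 to 11.6 CPM in IL10RAKO and 23.3 to 37.6 CPM in DKO (log2 fold changes -4.34 ± 0.44 and -2.78 ± 0.44), whereas PECAM1, which leukocytes also express, was called in DKO (-0.80, adjusted p = 0.0358) and not in IL10RAKO (-0.47, adjusted p = 0.222). Summed over the list, endothelial markers stood at 153 to 733 CPM in WT, 95.3 to 136 CPM in IL10RAKO and 95.4 to 151 CPM in DKO. Of 14 epithelial markers 13 were tested, and 1 was lower in IL10RAKO and 2 in DKO, a share near that of all tested genes in IL10RAKO. Their sum was 134, 304, 1742 and 182 CPM in WT 1, 2, 3 and 5, 51.2 to 223 CPM in IL10RAKO and 183 to 296 CPM in DKO. The top of the WT range was thus WT 3 alone, and WT 1 and 5 lay within the IL10RAKO range. KRT8 and KRT19, keratins of the epithelium, were called in neither knockout.

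Of 10 genes of enteric glia and neurons only 2 were tested, too few to describe the list. RET was called in neither knockout, and FOXD3 had 0 reads in all 8 knockout libraries. Markers of blood cells gave few lower calls. Beside them, 7.10% of all tested genes were lower and 8.70% higher in IL10RAKO, and 9.22% lower and 9.23% higher in DKO. T and NK cell markers (10 of 11 tested) had 1 lower in IL10RAKO and 1 lower and 1 higher in DKO. CD4 was lower in both (log2 fold changes -0.84 and -0.90) and CD2 was called in neither. Earlier work cited by the study also found CD4 on mature intestinal macrophages, so CD4 does not mark T cells alone here. None of the 7 B and plasma cell markers, CD79A and JCHAIN among them, was called by edgeR, and 0 passed an unadjusted p under 0.05 in IL10RAKO and 0 in DKO. Of 9 neutrophil markers 8 were tested, and 5 were higher and 1 lower in IL10RAKO and 6 higher in DKO. CSF3R, a growth factor receptor of neutrophils, rose by 1.18 and 1.05 on the log2 scale, and MMP9, a gelatinase, fell by 1.84 in IL10RAKO. All 15 macrophage markers were tested, 3 were higher in IL10RAKO, and 2 were higher and 2 lower in DKO, with CD74 called in neither and H2-AB1 higher in IL10RAKO (log2 fold change 0.61 ± 0.17, adjusted p = 0.0285).

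To ask whether loss of CCR2 on top of IL10RA loss altered the stromal genes, DKO was set against IL10RAKO. None of the 40 genes was called by edgeR in either direction, where 0.0305% of all tested genes were lower and 0.0152% higher. None was called by DESeq2, which called 21 lower and 3 higher over all tested genes. At an unadjusted p under 0.05 there were 5, named here after their values were seen: IGFBP7, LAMC1 and SPARCL1 were higher in DKO by 0.86, 0.93 and 1.08 on the log2 scale, and SERPINF1 and FBN1 lower (-1.21 and -1.18), each with an adjusted p that rounded to 1. The share of all tested genes under that unadjusted threshold was not counted, so these 5 are a description. The median log2 fold change of the 40 was 0.16, with 17 negative values and a range from -1.68 for MFAP5 to 1.64 for COL6A3. The 95% intervals bound how far the knockouts could differ: -0.73 to 0.53 for DCN, -0.45 to 0.88 for SPARC and -0.31 to 0.50 for GSN, but -0.63 to 1.62 for COL3A1 and -1.22 to 4.50 for COL6A3. For 5 of the 40 genes the whole interval lay within 1 of 0 on the log2 scale, and for the other 35 it reached past a 2-fold difference.

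Levels of different genes were compared per length of exon. In WT, the mean level was 202 CPM per kb for GSN, 103 for IGFBP7, 46.2 for SPARC, 43.1 for IGFBP4 and 25.6 for COL3A1. Over the 8 knockout libraries it was 210 CPM per kb for GSN, 15.9 for IGFBP4, 14.7 for IGFBP7 and 6.11 for SPARC. Of the 42 genes, 20 were under 10% of their WT mean in the knockouts, 15 lay between 10% and 25%, and 7 were at 25% or more. The lowest were FBLN1 at 2.71%, ELN at 3.4%, COL6A1 at 3.71% and POSTN at 3.82% of the WT mean. The 7 at 25% or more were COL4A2 (27.3%), PDGFRB (32.9%), IGFBP4 (36.8%), COL15A1 (38.9%), LAMC1 (46.7%), THY1 (54.2%) and GSN (103.6%). In the knockouts, 6 of the 42 genes had 0 reads in at least 1 library and 13 had 3 reads or fewer in at least 1, so their percentages rest on few reads.

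**Figure D4:**
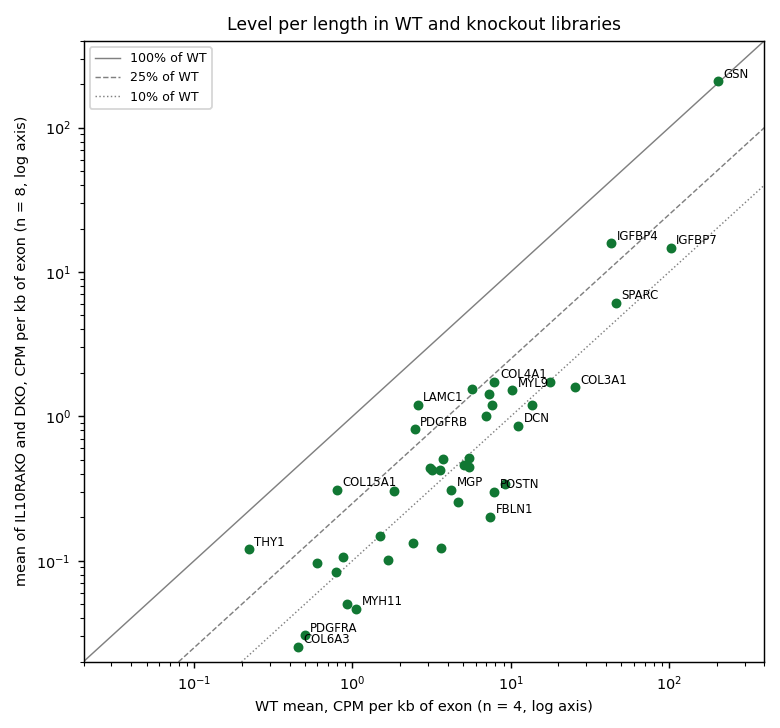
Mean CPM per kb of exon in the 4 WT libraries (x axis, log scale) and in the 8 IL10RAKO and DKO libraries (y axis, log scale), 1 point per gene for the 42 genes. Lines mark 100%, 25% and 10% of the WT level: GSN lies on the first line, IGFBP4, LAMC1, PDGFRB, COL15A1 and THY1 lie above the 25% line, and FBLN1, POSTN and COL3A1 lie below the 10% line.

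The WT mice differed among themselves by role group. The median gene was 2.91 times higher in its highest than in its lowest WT library, with medians of 6.72 times for the contractile genes, 4.60 times for the basement membrane genes and 2.28 times for the IGF-binding proteins. WT 5 was the highest library for 23 of the 42 genes, WT 2 for 9, WT 3 for 7 and WT 1 for 3, and WT 1 was the lowest for 21. The fibrillar collagens summed to 254, 520, 239 and 514 CPM in WT 1, 2, 3 and 5, and the basement membrane genes to 83.2, 119, 295 and 239 CPM. WT 2 was thus high in fibrillar collagens and low in basement membrane genes, and WT 3 the reverse. The contractile genes summed to 22.5, 24.2, 59.1 and 149 CPM, and all 4 were highest in WT 5. Endothelial markers summed to 284, 153, 733 and 630 CPM in the same order, pericyte genes to 8.36, 8.91, 31.8 and 51.9 CPM, and macrophage markers to 7.20e+04, 5.80e+04, 7.10e+04 and 6.38e+04 CPM. Basement membrane, endothelial and pericyte sums were thus higher in WT 3 and 5 than in WT 1 and 2. These orders over 4 mice are descriptions with no test.

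**Figure D5:**
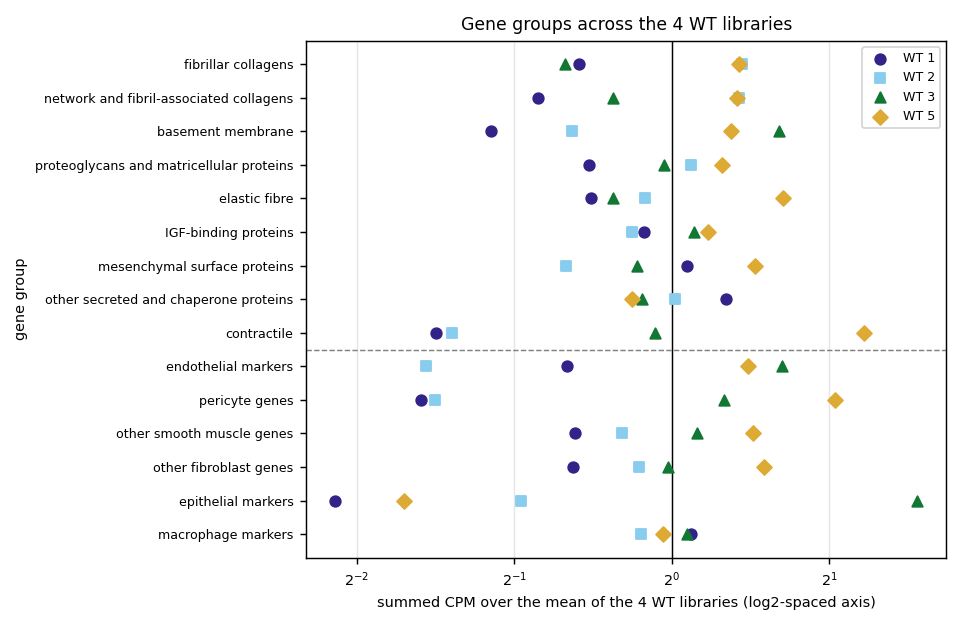
Summed CPM of each role group of the 42 genes (above the dashed line) and of other gene lists (below it) in each of the 4 WT libraries, divided by the mean of the 4, on a log2-spaced axis. One marker is 1 library. WT 2 and 5 lead the fibrillar collagens, WT 3 and 5 the basement membrane and endothelial lists, WT 5 the contractile and pericyte genes and WT 3 the epithelial markers, and macrophage markers are close to the mean in all 4.

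Among the 8 knockout libraries, the genes whose order of libraries was most like that of the summed fibrillar collagens were COL3A1 (Spearman rho 1), COL1A1 (0.952) and LAMB1 (0.929). Each fibrillar collagen was left out of the sum it was compared with. The least alike were COL15A1 (-0.619), THY1 (-0.381) and MYH11 (-0.143). These values are over 8 libraries of 2 genotypes that share depth differences, and they rest on low counts.

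The CCR2KO library, a single mouse with intact Il10ra, held stromal RNA within or above the WT range for most of the genes. The 42 genes took 0.352% of its counted reads (95% Wilson interval 0.349% to 0.355%, counting error only). It was above all 4 WT libraries for 10 of the 42 genes, within their range for 27 and below them for 5, and above all 8 IL10RA-deficient libraries for 37. COL3A1 was 415 CPM, SPARC 316 CPM and DCN 113 CPM, each above the highest WT library, while IGFBP5 at 0.790 CPM was below the lowest. WT 4 took 0.194% for the 42 genes and was above all 8 knockout libraries for 28 of them. It had 0 reads for 10 of the 42 genes, NID1, ELN, PDGFRA and PDGFRB among them, although COL3A1 stood at 120 CPM and COL4A1 at 93.2 CPM. With 1 mouse, the CCR2KO values have no replicate check and were not tested. The counts of genes above, within or below the ranges of other libraries were not made over all genes. They are descriptions of these 42 genes only.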

How the data were processed

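RNA-seq was done on 14 libraries of sorted colonic macrophages, 1 mouse each. The authors demultiplexed with bcl2fastq 2.20, aligned to mm10 with STAR 2.5.1b and deposited raw counts per gene and, as a second table, edgeR 3.34.0 pseudocounts (a normalized score) for 13338 genes in 12 libraries. The annotation, strand setting and treatment of multimapping reads are not given in the sources used here. Deposited counts were tested with edgeR 4.0.16 (R 4.3.3) by the quasi-likelihood test over the 12 libraries, with genotype as the term, TMM scaling, a filter on low counts (filterByExpr, minimum count 10) and Benjamini-Hochberg adjustment over 13136 genes at 0.05. CPM used TMM-scaled library sizes. The comparisons were IL10RAKO and DKO against WT and against each other. WT 4 and the CCR2KO library, which the authors did not carry into the second table, stayed out of the main test; WT 4 entered 1 alternative fit, and the CCR2KO library gave values only. Replicates were numbered in accession order, since the labels number samples across the series. No pair of libraries of a genotype agreed within counting noise (smallest chi-square per degree of freedom 30.0). Self-tests on simulated counts, built from the main fit, were also run. Coordinates and exon lengths are from GENCODE vM21 (GRCm38), where 24490 of 24982 symbols and all 42 genes matched. The genes and lists were chosen with earlier results of these data known. Genes given in full were the 2 with the highest mean CPM in each role group, the 3 most and least like the fibrillar sum, and genes called between knockouts; of each other list, the 2 tested genes with the highest mean CPM. Alternatives were 22 other settings: DESeq2 1.42.0, limma 3.58.1 on the pseudocounts, other scalings, filters and dispersions, other library sets, and leaving out each replicate. A result for the enteric glia and neuron list is not reported here.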

Additional observations from a re-analysis of the deposited data

Results flagged for a closer look

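Groups of 4 libraries were examined for a highest or lowest library far from the other 3. Of 138 groups, 6 stood out, and chance alone flags about 5% of groups. In DKO, the 42 genes took 0.103% of the counted reads in DKO 4 against 0.0814% to 0.0842% in the other 3. In WT, the epithelial markers summed to 1742 CPM in WT 3 against 134 to 304 CPM in the other 3. ELN stood at 2.18 CPM in DKO 2 against 0.351 to 0.593 CPM in the other DKO libraries. PDGFRA stood at 9.86 CPM in WT 5 against 3.15 to 3.87 CPM in the other WT libraries. In IL10RAKO 3, TAGLN stood at 4.15 CPM against 1.39 to 1.68 CPM, and MYH11 at 1.47 CPM against 0.0696 to 0.264 CPM, in the other IL10RAKO libraries. The CCR2KO library, which entered no test, held 0.352% of its reads on the 42 genes, above the 0.211% to 0.306% of the 4 WT libraries.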

How the results depend on the processing

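The direction of the medians against WT held under each of the 22 alternatives, and no stromal gene was called higher. With 10 reads required in every library, 21 of the 42 genes were tested, and 20 were called in IL10RAKO and 19 in DKO, with a median of -2.87 in DKO. Over all 10740 genes tested with that filter, 772 were lower in IL10RAKO and 1035 in DKO. Leaving out 1 library gave 32 to 38 calls in IL10RAKO (medians -3.61 to -3.09) and 30 to 39 in DKO (medians -3.62 to -2.83), the smallest DKO median being without WT 5. Over all genes these fits gave 592 to 1260 lower in IL10RAKO and 809 to 1570 in DKO. Scaled by library totals alone, the median of all genes was -0.38 in IL10RAKO and -0.32 in DKO and the median of the 40 genes -3.67 and -3.55, with 37 and 36 called. Over all genes that scaling gave 2084 lower and 651 higher in IL10RAKO, against 933 and 1143, and 2140 and 748 in DKO, against 1211 and 1213. DKO against IL10RAKO kept 0 calls, but its median ran from -0.20 without DKO 4 and -0.01 without IL10RAKO 2 to 0.33. GSN in IL10RAKO took values of -0.31 with library totals, -0.044 with 10 reads in every library and -0.0875 to 0.18 without 1 library, and -0.16 in DKO with library totals, never called. MFAP5 in DKO against IL10RAKO ran from -3.21 to 0.20 without 1 library, the last without IL10RAKO 1. Without GSN the median shares were 0.186% in WT, 0.0191% in IL10RAKO and 0.0216% in DKO. With 1 library left out, the group median of the share of all 42 genes was 0.241% to 0.271% in WT. It was 0.0784% to 0.0852% in IL10RAKO and 0.0838% to 0.0842% in DKO. Single libraries spread more widely than these medians. The causes were not tested, except that the stricter filter tests fewer genes. No paired analysis was possible because the groups hold different mice and the labels number samples across the series. Depth limits the genes with 3 reads or fewer in a knockout library.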
